A study of Mus musculus with 33 samples.

Results

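The 55 genes described here encode the enzymes and carriers of the urea cycle and of amino acid breakdown, and they were taken from a list of gene symbols matched by Ensembl identifier, 55 of the 25988 genes in the count table. All 55 passed the filter on low counts that left 10179 genes for testing. They fall into 8 genes of the urea cycle, 3 of glutamine, glutamate and ornithine metabolism, 3 of proline, 5 aminotransferases, 6 of phenylalanine and tyrosine, 6 of tryptophan, 7 of serine and glycine, 7 of methionine, 1 of lysine, 4 of histidine and 5 of the branched chain amino acids. Levels within a group are given below as the lowest, the median and the highest library, in this order.

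The liver breaks down most of the amino acids that the body does not use for protein, passing their nitrogen through glutamate, alanine and aspartate. Hepatocytes around the portal vein turn the released ammonia into urea, and the carbon skeletons feed gluconeogenesis, ketone bodies or the citric acid cycle. Urea cycle and amino acid degrading genes are under the control of glucagon, glucocorticoids and insulin. ChREBP, encoded by Mlxipl, is a glucose-responsive transcription factor best known for glycolytic and lipogenic genes such as Pklr, the liver pyruvate kinase.

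The study sequenced 33 liver libraries by 3' QuantSeq, which reads the 3' ends of transcripts, from nonfasted male C57BL/6J mice. The labels give an age of 13 to 18 weeks, which in the study's methods is the age at hairpin infection, so that the mice were older when the livers were taken, 10 days after the last tamoxifen injection. All animals carried floxed G6pc, the catalytic subunit of glucose-6-phosphatase, and all received tamoxifen. In L-G6pc-/- mice a tamoxifen-inducible creERT2 under control of the albumin gene deleted G6pc in hepatocytes, whereas L-G6pc+/+ littermates had no Cre, so that the deletion and the presence of Cre cannot be told apart. Each mouse had first received an adeno-associated virus with a short hairpin RNA, either a scrambled one (shSCR) or one against ChREBP (shChREBP), giving shSCR/L-G6pc+/+ (n = 8), shChREBP/L-G6pc+/+ (n = 8), shSCR/L-G6pc-/- (n = 8) and shChREBP/L-G6pc-/- (n = 9), where n counts libraries. Whether every library came from its own animal is not said in the labels, and p-values measure the spread between libraries, which may be partly technical. In bulk liver RNA, fewer hepatocytes and less RNA per hepatocyte cannot be told apart.

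Libraries held 1497843 to 3546852 counts. Mlxipl was lower in every shChREBP library than in any shSCR library of the same genotype, with a median of 395 against 528 CPM (counts scaled for library size) in L-G6pc+/+ and of 441 against 578 CPM in L-G6pc-/-. 3' tags of G6pc were counted in all groups, with mean levels of 236 CPM in shSCR/L-G6pc+/+ and 346 CPM in shSCR/L-G6pc-/-, and such tags do not check a deletion that leaves the 3' end in place. The libraries s29, s30, s32 and s33 of shChREBP/L-G6pc-/- stood apart from the other 5 of that group on the first principal component of all genes. For all 55 genes the range of these 4 libraries overlapped that of the other 5. The same count was not made over all genes. Ranges overlap even where a single library reaches into the other range. The overlap therefore does not show that these 4 libraries were like the other 5 for the 55 genes.

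Promoters are shown for Bhmt and Qdpr, which were lower with shChREBP in both genotypes, and for Ass1, a urea cycle gene. The Ass1 promoter holds a single copy of the E-box core that ChREBP recognises in pairs. A pair of these cores at a fixed spacing was also searched for, and 0 of 32851 promoters held it, Ass1 included. As no promoter matched, that search cannot set these genes apart from others. Each window runs from 250 bases before to 50 bases after the RefSeq start site (GRCm38.p6), at chr13:93637709-93638008 on the minus strand for Bhmt, chr5:45450180-45450479 on the minus strand for Qdpr and chr2:31470020-31470319 on the plus strand for Ass1. Capitals mark the motif CACGTG in Ass1 and a match to TTGCNNAA, a C/EBP-type core, in Qdpr, where it reads on the opposite strand.
Bhmt: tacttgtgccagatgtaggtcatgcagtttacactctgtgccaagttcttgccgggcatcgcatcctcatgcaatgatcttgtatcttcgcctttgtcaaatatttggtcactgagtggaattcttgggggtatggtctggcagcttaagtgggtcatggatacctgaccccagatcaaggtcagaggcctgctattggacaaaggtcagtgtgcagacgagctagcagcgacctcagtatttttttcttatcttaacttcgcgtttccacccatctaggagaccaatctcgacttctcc
Qdpr: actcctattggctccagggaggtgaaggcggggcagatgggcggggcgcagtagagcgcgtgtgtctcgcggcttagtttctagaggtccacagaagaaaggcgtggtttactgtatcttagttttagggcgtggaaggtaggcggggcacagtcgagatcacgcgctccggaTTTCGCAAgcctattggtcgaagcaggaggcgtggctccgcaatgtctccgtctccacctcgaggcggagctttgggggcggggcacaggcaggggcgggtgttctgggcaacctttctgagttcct
Ass1: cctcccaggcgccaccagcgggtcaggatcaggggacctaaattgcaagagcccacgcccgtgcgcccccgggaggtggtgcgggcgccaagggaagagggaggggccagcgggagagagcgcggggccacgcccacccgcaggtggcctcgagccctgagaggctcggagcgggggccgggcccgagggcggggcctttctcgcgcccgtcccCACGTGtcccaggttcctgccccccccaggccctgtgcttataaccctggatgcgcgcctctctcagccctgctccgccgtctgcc

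Such windows were found for 45 of the 55 genes, in 48 promoters. CACGTG, searched on both strands, was found in the promoters of Ass1, Cbs, Mccc2, Slc25a13 and Slc25a15, and in 7.15% of all 32851 promoters in the table. None of these 5 genes passed the test in any comparison below. TTGCNNAA, also searched on both strands, was found for Aass, Hal, Hgd, Prodh2 and Qdpr, against 10.8% of all promoters. Neither the cyclic AMP response element TGACGTCA (1.79% of all promoters) nor the HNF4A-type element CAAAGTCCA (0.475%) was in a promoter of these genes. A match is a description of these letters and not of binding.

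Relative to the mean of shSCR/L-G6pc+/+, the median of the 55 genes in a single library ran from -0.22 to 0.25 log2 CPM in shSCR/L-G6pc+/+ itself and from -0.54 to 0.11 in shChREBP/L-G6pc+/+. It ran from -0.71 to 0.20 in shSCR/L-G6pc-/- and from -0.54 to -0.0068 in shChREBP/L-G6pc-/-. The groups overlapped, and shChREBP/L-G6pc-/- was the only one in which all libraries lay below 0. The lowest value was that of the shSCR/L-G6pc-/- library s17, in which 52 of the 55 genes lay below the mean of shSCR/L-G6pc+/+.

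**Figure D1:**
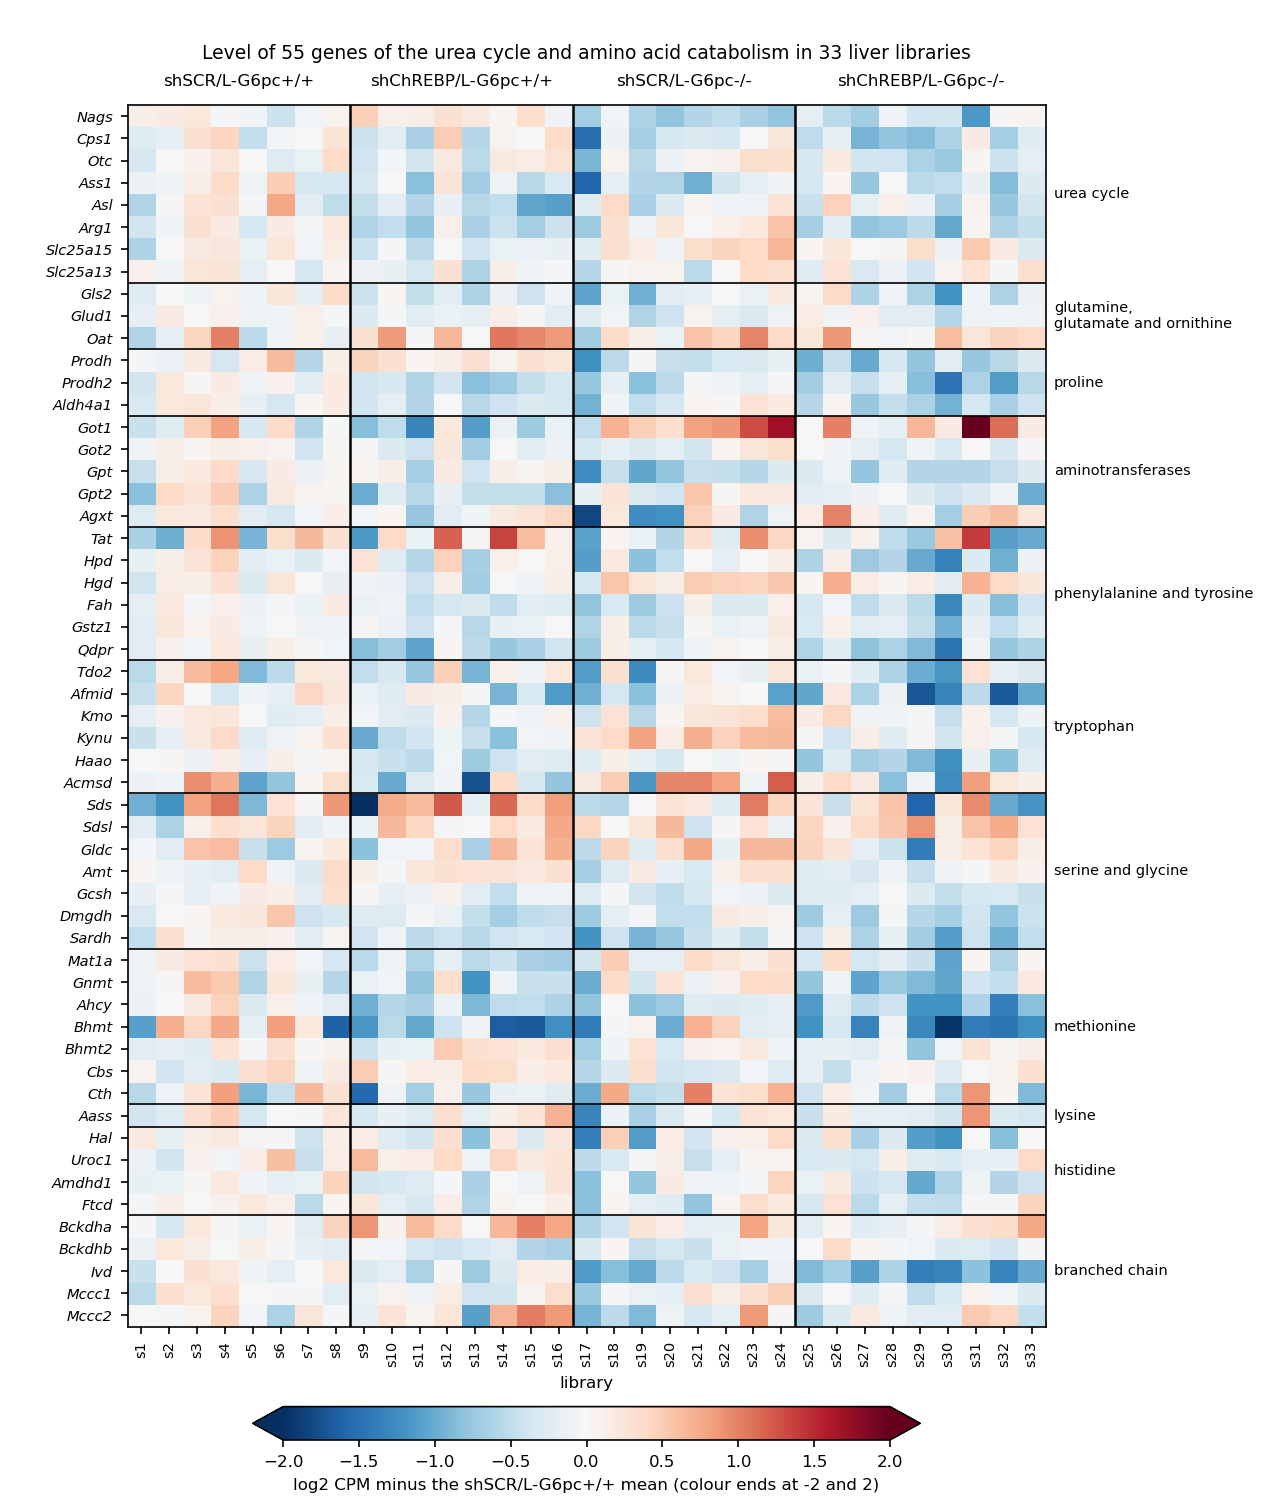
Each row is 1 of the 55 genes, grouped by pathway, and each column 1 of the 33 libraries, grouped by hairpin and genotype. Colour gives log2 CPM minus the mean of shSCR/L-G6pc+/+, with blue for lower and red for higher. Bhmt and Ivd are below 0 in all 9 shChREBP/L-G6pc-/- libraries, as are others such as Prodh, Prodh2, Qdpr, Haao, Ahcy, Gpt, Dmgdh, Fah and Gcsh, and s17 is blue for 52 genes.

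Which of these genes differed between groups was tested with edgeR's quasi-likelihood test over all 10179 genes, and a gene was called at a Benjamini-Hochberg adjusted p under 0.05. In shSCR/L-G6pc-/- compared with shSCR/L-G6pc+/+, 1 member was higher and 4 were lower, where 2.20% of all genes were called higher and 1.03% lower. The median log2 fold change of the 55 was -0.11, against 0.0021 for all genes. In shChREBP/L-G6pc-/- compared with shChREBP/L-G6pc+/+, 2 were higher and 5 lower, against 6.14% and 4.90% of all genes, and the medians were -0.15 and -0.014. The lower calls of these comparisons shared Nags, Gpt and Ivd, that is 3 of 4 and 3 of 5. The comparisons have no library in common but come from the same fit, which shares the spread of each gene. The overlap of calls over all genes was not counted.

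With ChREBP knockdown in L-G6pc+/+, 1 member was higher and 7 were lower, where 2.16% of all genes were called higher and 3.23% lower, and the median of the 55 was -0.17 against 0.026 for all genes. In L-G6pc-/-, knockdown left 0 higher and 5 lower, against 3.33% and 4.23% of all genes, with medians of -0.16 and 0.0063. Arg1, Bhmt and Qdpr were lower in both, 3 of 7 and 3 of 5 of the respective lower genes, and here too the overlap over all genes was not counted. For shChREBP/L-G6pc-/- compared with shSCR/L-G6pc+/+, 0 were higher and 17 lower, against 6.87% and 6.37% of all genes, and the medians were -0.26 and 0.0052. In all, 25 members were called in at least 1 of these comparisons and 30 in none. The same count was not made over all genes, so these numbers do not set the members apart from other genes.

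The effect of shChREBP differed between the genotypes for 0 of the 55 genes by edgeR's quasi-likelihood test and by DESeq2, where 0.0786% of all genes were called by edgeR. At an unadjusted p under 0.05 there were 3 members, Bckdhb, Bckdha and Sardh, against 12% of all genes, and the smallest adjusted p was 0.166. An effect called in 1 genotype and not in the other is therefore not shown to differ between them. The 3 comparisons with shSCR/L-G6pc+/+ share those control libraries, and all comparisons that involve shChREBP/L-G6pc-/- share those libraries.

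**Figure D2:**
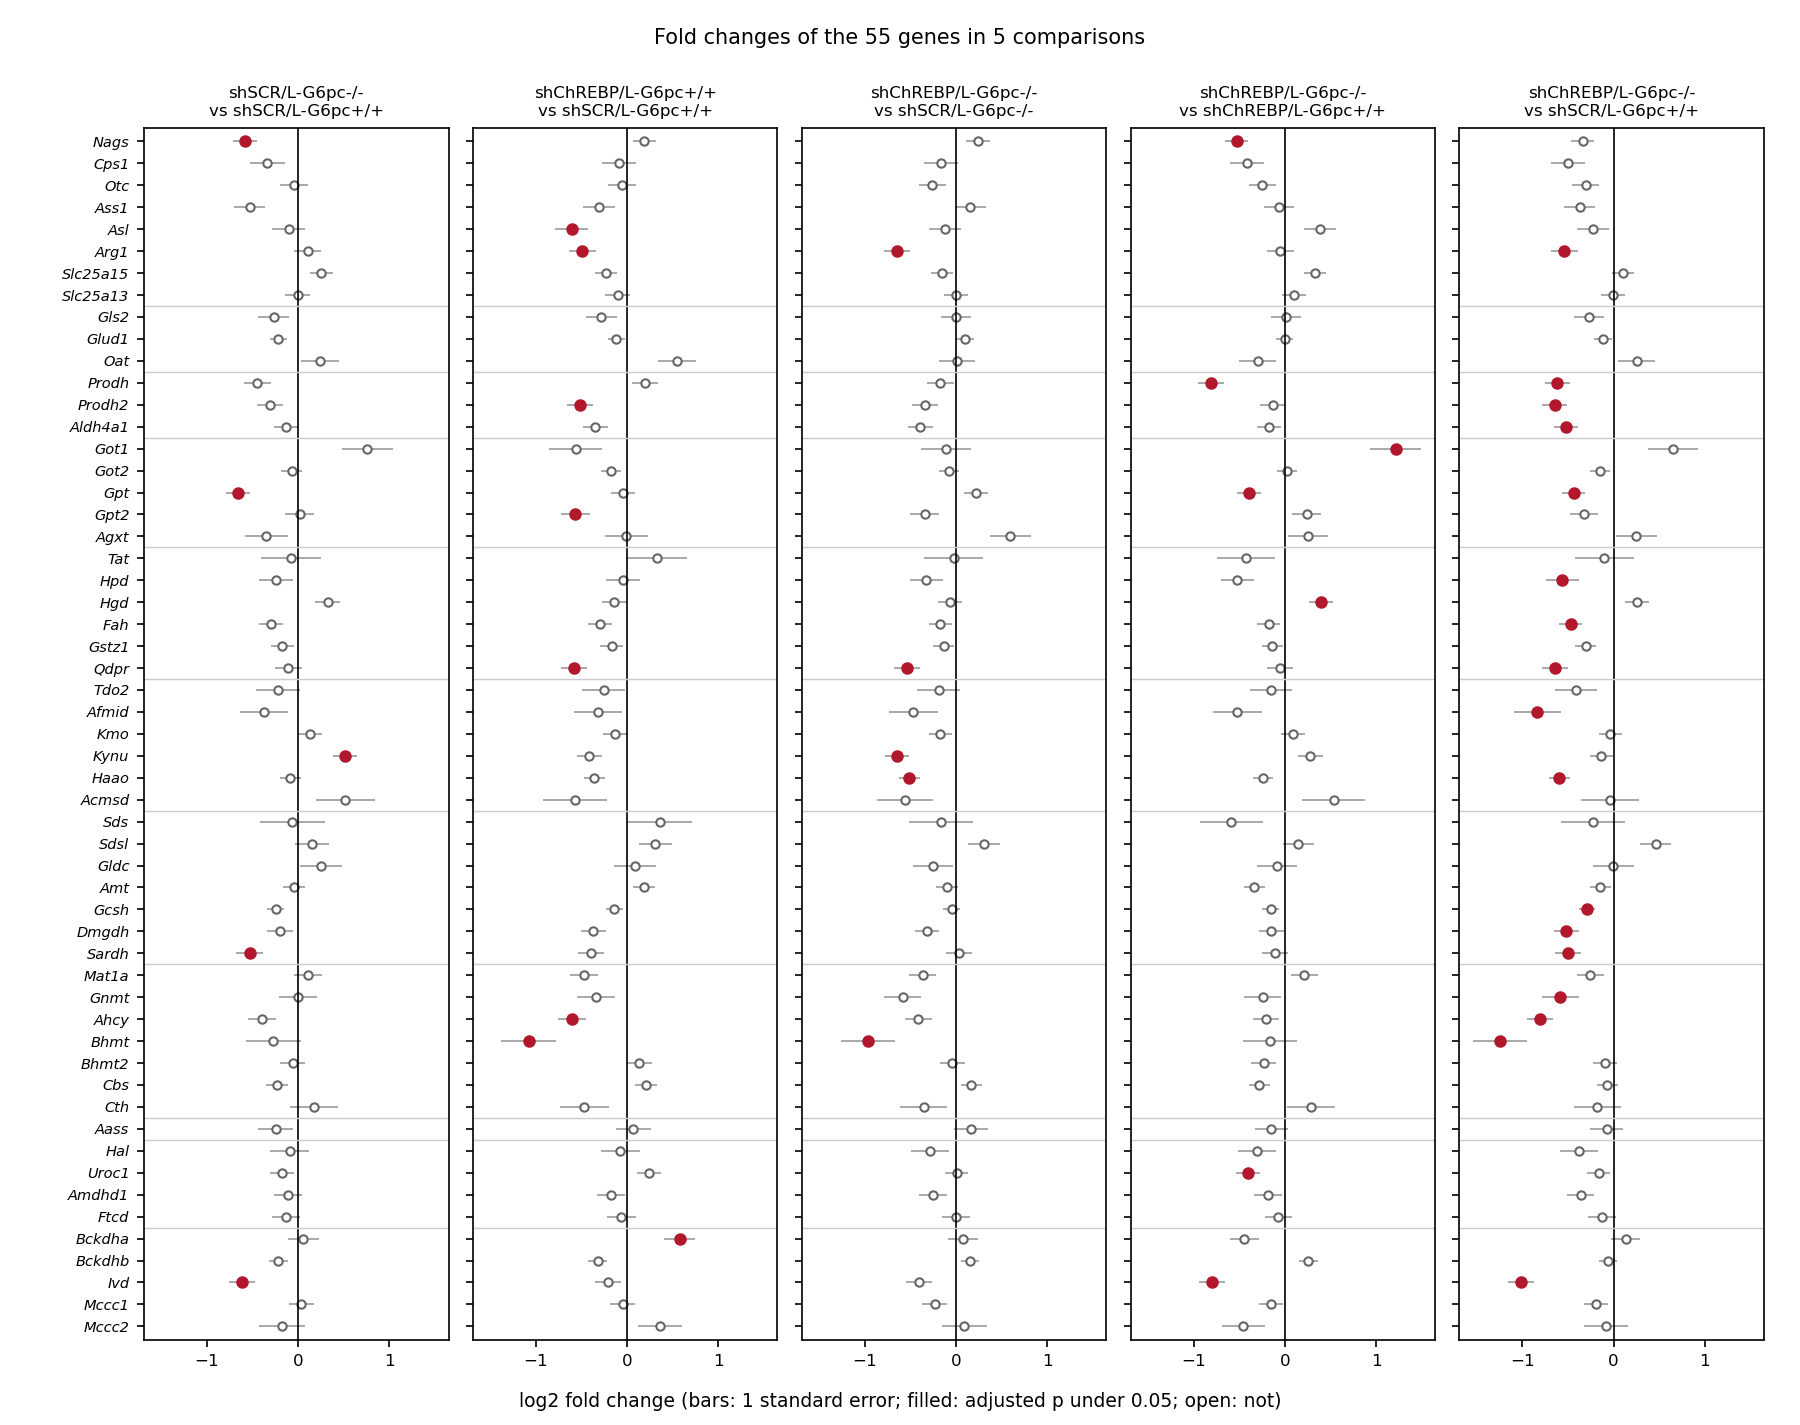
Log2 fold changes of the 55 genes (rows) in the 5 comparisons (panels), with bars of 1 standard error. Filled points passed an adjusted p of 0.05 and open points did not. The right panel holds 17 filled points, all below 0, and the others hold 5 to 8.

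Among the 8 urea cycle genes, Nags was lower with G6pc deletion under either hairpin, and Arg1 was lower with ChREBP knockdown in either genotype. Nags (chr11:102145513-102149477, GRCm38, as for all positions here) makes N-acetylglutamate, the activator that the first enzyme of the cycle requires. Nags had 43.2, 59.4 and 67.6 CPM in shSCR/L-G6pc+/+ and 33.3, 37.4 and 56.2 CPM in shSCR/L-G6pc-/-. All shSCR/L-G6pc-/- libraries except s18 lay below the lowest control library. In the shChREBP groups the values were 55.7, 65.4 and 81.6 CPM in L-G6pc+/+ and 25.9, 44.9 and 60.3 CPM in L-G6pc-/-, and 2 libraries of each, s14, s16, s32 and s33, lay in the shared range. The log2 fold change was -0.58 ± 0.13 (SE) with shSCR (adjusted p = 0.00678, edgeR) and -0.53 ± 0.13 with shChREBP (adjusted p = 0.00483, edgeR). Both calls held in all 33 fits that left out 1 library and in all 10 other alternatives. Here and below, these 33 fits include those that left out a library of a group not compared. Such a library acts only indirectly, for example through the spread, which was estimated over all 4 groups. The shChREBP effect on Nags was 0.19 ± 0.13 in L-G6pc+/+ and 0.24 ± 0.13 in L-G6pc-/- and did not pass (adjusted p = 0.401 and 0.265, edgeR).

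Arg1 (chr10:24915221-24927484) encodes arginase, which releases urea from arginine. It had a lowest, median and highest value of 749.7, 1008 and 1185 CPM in shSCR/L-G6pc+/+ and of 556, 659 and 1029 CPM in shChREBP/L-G6pc+/+. All shChREBP/L-G6pc+/+ libraries but s12, the highest, lay below the control libraries. In L-G6pc-/- the values were 591, 1074 and 1432 CPM with shSCR and 474, 627 and 1000.1 CPM with shChREBP. The shared range held 3 shSCR and 6 shChREBP libraries, and s17 was the lowest of the former. Knockdown changed Arg1 by -0.49 ± 0.15 log2 in L-G6pc+/+ (adjusted p = 0.0426, edgeR) and by -0.64 ± 0.14 in L-G6pc-/- (adjusted p = 0.00378, edgeR). Without s29, s30, s32 and s33 the latter was -0.55 (adjusted p = 0.132, edgeR), and the former was kept in 20 of 33 fits that left out 1 library and lost without s2, s3, s4, s6, s7, s8, s9, s10, s11, s13, s14, s15 or s16 (adjusted p from 0.0112 to 0.0866 over all 33, edgeR). All libraries whose removal ended the call belong to the groups compared, and most libraries of those groups are among them.

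Asl (chr5:130011258-130029247), the lyase that splits argininosuccinate into arginine and fumarate, was lower with shChREBP in L-G6pc+/+. Its values in that group were 98.4, 146 and 190.1 CPM, against 139, 209.5 and 361 CPM in shSCR/L-G6pc+/+, and 6 shChREBP and 3 shSCR libraries lay in the shared range. The log2 fold change was -0.61 ± 0.18 (adjusted p = 0.0393, edgeR), which was lost without s2, s3, s4, s6, s11, s13, s14, s15 or s16 (adjusted p up to 0.112). In L-G6pc-/- it was -0.12 ± 0.17 (adjusted p = 0.743, edgeR), and the test of the difference gave 0.49 ± 0.25 (adjusted p = 0.432, edgeR).

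Cps1, the carbamoyl phosphate synthetase that takes up ammonia, Otc, which joins carbamoyl phosphate to ornithine, Ass1, which adds the second nitrogen from aspartate, and the mitochondrial carriers Slc25a15 for ornithine and Slc25a13 for aspartate passed in no comparison. Cps1 had a lowest, median and highest value of 607, 836 and 1161 CPM in shSCR/L-G6pc+/+, of 548, 798 and 1219.9 CPM in shChREBP/L-G6pc+/+, of 301, 691 and 999 CPM in shSCR/L-G6pc-/- and of 448, 556 and 959.5 CPM in shChREBP/L-G6pc-/-. Its log2 difference between shChREBP/L-G6pc-/- and shSCR/L-G6pc+/+ was -0.50 ± 0.18 (adjusted p = 0.0641, edgeR). The Otc difference between the same groups was -0.31 ± 0.15 (adjusted p = 0.193, edgeR). For Ass1 the deletion with shSCR gave -0.53 ± 0.17 (adjusted p = 0.0897, edgeR), from 346, 413 and 621 CPM in shSCR/L-G6pc+/+ to 147, 318 and 421 CPM in shSCR/L-G6pc-/-, where s17 was the lowest. Slc25a15 was 0.33 ± 0.12 with the deletion under shChREBP (adjusted p = 0.0725, edgeR). Slc25a13 ran from -0.10 to 0.11 log2 over the 6 contrasts, with standard errors of 0.13 to 0.19.

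Glud1, the glutamate dehydrogenase that frees ammonia from glutamate, Gls2, the liver glutaminase, and Oat, ornithine aminotransferase, passed in no comparison. The largest of their differences was that of Oat with shChREBP in L-G6pc+/+, at 0.55 log2 (adjusted p = 0.104, edgeR).

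The 3 proline genes were all lower in shChREBP/L-G6pc-/- than in shSCR/L-G6pc+/+. Prodh (chr16:18060357-18090203) encodes proline dehydrogenase, the first step of proline breakdown. Prodh had 36.3, 55.7 and 84.8 CPM in shSCR/L-G6pc+/+, 55.7, 65.8 and 74.2 CPM in shChREBP/L-G6pc+/+, 22.8, 41.5 and 53.4 CPM in shSCR/L-G6pc-/- and 26.5, 36.8 and 46.8 CPM in shChREBP/L-G6pc-/-. All shChREBP/L-G6pc-/- libraries lay below all shChREBP/L-G6pc+/+ libraries, which held for 1 of the 55 genes and for 0.727% of all genes. The deletion under shChREBP gave a log2 fold change of -0.81 ± 0.14 (adjusted p = 0.000192, edgeR), and shChREBP/L-G6pc-/- against shSCR/L-G6pc+/+ gave -0.62 ± 0.14 (adjusted p = 0.00248, edgeR). Dgcr6 overlaps the 3' end of Prodh on the other strand and had 54.2% of its count, and the sources used here do not say whether reads were counted by strand.

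Prodh2 (chr7:30493622-30513402), which oxidises hydroxyproline, was lower with shChREBP in L-G6pc+/+, from 213, 287 and 319.7 CPM to 153, 204 and 221 CPM (lowest, median and highest), with 1 control library in the shared range. Its log2 fold change was -0.51 ± 0.14 (adjusted p = 0.0293, edgeR, and up to 0.0627 without s2, s4, s11, s13 or s14), and -0.65 ± 0.14 in shChREBP/L-G6pc-/- against shSCR/L-G6pc+/+ (adjusted p = 0.00132, edgeR). Aldh4a1, the next dehydrogenase of both routes, differed in the latter comparison by -0.52 ± 0.13 (adjusted p = 0.00698, edgeR), between 241, 323 and 360.1 CPM in shSCR/L-G6pc+/+ and 157, 203 and 314 CPM in shChREBP/L-G6pc-/-, where 1 of the 9 latter libraries reached the control range.

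Of the 5 aminotransferases, the cytosolic alanine aminotransferase Gpt (chr15:76695716-76699686) was lower with the deletion under both hairpins. Gpt had 143, 210.5 and 259 CPM in shSCR/L-G6pc+/+ and 83.3, 138 and 164 CPM in shSCR/L-G6pc-/-. In the shChREBP groups the values were 124, 210.5 and 223 CPM in L-G6pc+/+ and 116, 143 and 184 CPM in L-G6pc-/-. Under shSCR 1 L-G6pc-/- and 2 L-G6pc+/+ libraries lay in the shared range, and under shChREBP 8 and 2. The log2 fold change was -0.66 ± 0.14 with shSCR (adjusted p = 0.00222, edgeR), a call kept in all 33 leave-one-out fits, and -0.39 ± 0.13 with shChREBP (adjusted p = 0.0446, edgeR), a call kept in 19 of 33 and lost without s2, s7, s9, s10, s12, s14, s15, s16, s25, s27, s29, s30, s31 or s32 (adjusted p up to 0.0874). The latter call was kept in 5 of the 10 other alternatives and lost with limma-voom, limma on the deposited values, library size only, no filter on low counts and without s29, s30, s32 and s33 (adjusted p up to 0.185).

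Gpt2, the mitochondrial alanine aminotransferase, was lower with shChREBP in L-G6pc+/+ (log2 fold change -0.57 ± 0.16, adjusted p = 0.0319, edgeR, and up to 0.0783 without s2, s3, s4, s6, s9, s11, s15 or s16). Gpt2 had 250.4, 491 and 632 CPM in shSCR/L-G6pc+/+ and 226, 322 and 403 CPM in shChREBP/L-G6pc+/+, and 7 of the 8 latter libraries lay in the shared range. Got1, the cytosolic aspartate aminotransferase, was higher with the deletion under shChREBP (1.21 ± 0.28, adjusted p = 0.00396, edgeR). Got1 had 85.5, 139.8 and 245 CPM in shChREBP/L-G6pc+/+ and 186, 239 and 869.6 CPM in shChREBP/L-G6pc-/-, with the highest in s31. Without 1 library at a time this fold change ran from 0.92 to 1.35 and kept its call. Under shSCR it was 0.76, which did not pass (adjusted p = 0.158, edgeR). Got2, the mitochondrial form, and Agxt, the alanine-glyoxylate aminotransferase, passed nowhere.

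Qdpr (chr5:45434021-45450236) regenerates the tetrahydrobiopterin that phenylalanine hydroxylation uses up. Qdpr had 652, 745 and 868 CPM in shSCR/L-G6pc+/+ and 361, 471 and 773 CPM in shChREBP/L-G6pc+/+. 1 shChREBP/L-G6pc+/+ library, s12, lay within the control range and the others lay below it. In L-G6pc-/- the values were 458, 727 and 828 CPM with shSCR and 272, 486 and 708 CPM with shChREBP, and the shared range held 4 and 5 libraries. Knockdown gave -0.58 ± 0.15 log2 in L-G6pc+/+ (adjusted p = 0.0157, edgeR) and -0.53 ± 0.14 in L-G6pc-/- (adjusted p = 0.0148, edgeR), and both held in all 33 leave-one-out fits. Leaving out s29, s30, s32 and s33 gave, for L-G6pc-/-, -0.34 (adjusted p = 0.340, edgeR).

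Of the tyrosine genes, Hgd, homogentisate dioxygenase, was higher with the deletion under shChREBP (0.39 ± 0.13 log2, adjusted p = 0.0493, edgeR), a call kept in 15 of 33 leave-one-out fits and lost without s3, s7, s8, s9, s10, s11, s13, s14, s15, s20, s22, s23, s26, s27, s29, s31, s32 or s33 (adjusted p up to 0.120). It was kept in 4 of the 10 other alternatives and lost with limma-voom, limma on the deposited values, no filter on low counts, only the groups compared, without s9 and s13 and without Gm42418 (adjusted p up to 0.129). Hgd had 138, 213 and 243 CPM in shChREBP/L-G6pc+/+ and 193, 249 and 365 CPM in shChREBP/L-G6pc-/-, with 6 and 3 libraries in the shared range. Fah, the last enzyme of the pathway, and Hpd, which makes homogentisate, were lower in shChREBP/L-G6pc-/- than in shSCR/L-G6pc+/+, with log2 fold changes of -0.47 ± 0.13 (adjusted p = 0.00917, edgeR) and -0.56 ± 0.18 (adjusted p = 0.0325, edgeR, and up to 0.0855 without s2, s3, s4, s27, s29, s30 or s32). For Fah the lowest, median and highest values were 407, 454 and 527 CPM in shSCR/L-G6pc+/+ and 188, 349 and 444 CPM in shChREBP/L-G6pc-/-, and 1 of the 9 latter libraries lay in the control range. For Hpd they were 376, 427 and 625 CPM in shSCR/L-G6pc+/+ and 177, 294 and 498 CPM in shChREBP/L-G6pc-/-, with 3 of 9 in that range. Tat, the tyrosine aminotransferase that begins the pathway, and Gstz1, the maleylacetoacetate isomerase, passed nowhere.

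In tryptophan breakdown Kynu, Haao and Afmid passed in at least 1 comparison. Kynu (chr2:43555329-43682715), kynureninase, was higher with the deletion under shSCR and lower with ChREBP knockdown in L-G6pc-/-. Kynu had 41.3, 56.2 and 74.4 CPM in shSCR/L-G6pc+/+, 27.6, 42.0 and 54.4 CPM in shChREBP/L-G6pc+/+, 62.5, 83.5 and 99.1 CPM in shSCR/L-G6pc-/- and 42.7, 55.6 and 62.8 CPM in shChREBP/L-G6pc-/-. The shSCR/L-G6pc-/- libraries lay above the shChREBP/L-G6pc-/- ones but for an overlap of 1 library from each group. Its log2 fold change was 0.51 ± 0.13 for the deletion with shSCR (adjusted p = 0.0216, edgeR, and up to 0.0594 without s1 or s5) and -0.64 ± 0.13 for the knockdown in L-G6pc-/- (adjusted p = 0.00131, edgeR). Between shChREBP/L-G6pc-/- and shSCR/L-G6pc+/+ it was -0.13 (adjusted p = 0.569, edgeR). The knockdown in L-G6pc+/+ gave -0.47 to -0.32 over the 43 alternative settings and was not called with all libraries. The knockdown effects on Kynu were not called different between genotypes.

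Haao (chr17:83831156-83847963), which opens the ring of 3-hydroxyanthranilate, had lowest, median and highest values of 128, 144 and 157 CPM in shSCR/L-G6pc+/+, 86.5, 111 and 138 CPM in shChREBP/L-G6pc+/+, 114, 137 and 154 CPM in shSCR/L-G6pc-/- and 60.4, 88.1 and 129 CPM in shChREBP/L-G6pc-/-. In L-G6pc+/+ all shChREBP libraries but s12 lay below the shSCR libraries, and in L-G6pc-/- 6 of 9 did. Knockdown gave -0.51 ± 0.11 log2 in L-G6pc-/- (adjusted p = 0.00344, edgeR) and -0.36 in L-G6pc+/+, which did not pass (adjusted p = 0.0576, edgeR). Against shSCR/L-G6pc+/+, shChREBP/L-G6pc-/- gave -0.60 ± 0.11 (adjusted p = 0.000316, edgeR), a call that also held without s29, s30, s32 and s33 (-0.47, adjusted p = 0.0135). Afmid, the formamidase of the second step, passed in this comparison alone (-0.84 ± 0.26, adjusted p = 0.0247, edgeR, and up to 0.0592 without s2, s7, s29, s30 or s32). Its level was low, with medians of 9.20 CPM in shSCR/L-G6pc+/+ and 4.28 CPM in shChREBP/L-G6pc-/-, and Tk1, which overlaps it on the other strand, had 87.8% of its count. Tdo2, the first enzyme, Kmo and Acmsd passed nowhere.

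Among the serine and glycine genes, Sardh, which oxidises sarcosine, was lower with the deletion under shSCR (-0.53 ± 0.15 log2, adjusted p = 0.0301, edgeR, and up to 0.0805 without s2, s4, s5, s17, s19 or s20). Sardh had 701, 1036 and 1221 CPM in shSCR/L-G6pc+/+ and 433, 721 and 977 CPM in shSCR/L-G6pc-/-, and 5 of the 8 latter libraries lay in the shared range. It was also lower in shChREBP/L-G6pc-/- than in shSCR/L-G6pc+/+ (-0.50 ± 0.14, adjusted p = 0.0143, edgeR). Dmgdh, which oxidises dimethylglycine to sarcosine, was lower in the latter comparison (-0.52 ± 0.13, adjusted p = 0.00768, edgeR), as was Gcsh of the glycine cleavage system (-0.29 ± 0.090, adjusted p = 0.0242, edgeR, and up to 0.0758 without s5, s8 or s30). Dmgdh had 266, 366 and 525 CPM in shSCR/L-G6pc+/+ against 205, 240.2 and 348 CPM in shChREBP/L-G6pc-/-, and Gcsh 73.2, 81.9 and 109 CPM in shSCR/L-G6pc+/+ against 60.8, 69.9 and 84.1 CPM in shChREBP/L-G6pc-/-. The groups overlapped for both genes. Gldc and Amt of the same system and the serine dehydratases Sds and Sdsl passed nowhere.

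The largest falls of the set with ChREBP knockdown were those of Bhmt (chr13:93616675-93637961), which remethylates homocysteine from betaine. Bhmt had 102, 393 and 555 CPM in shSCR/L-G6pc+/+, 98.0, 148 and 296 CPM in shChREBP/L-G6pc+/+, 118, 293 and 509.5 CPM in shSCR/L-G6pc-/- and 79.9, 128 and 297 CPM in shChREBP/L-G6pc-/-. The lowest libraries of the 4 groups were at similar levels, and 5 of 8 shSCR/L-G6pc+/+ and 4 of 8 shSCR/L-G6pc-/- libraries lay above all shChREBP libraries of their genotype. The log2 fold change with knockdown was -1.08 ± 0.31 in L-G6pc+/+ (adjusted p = 0.0328, edgeR) and -0.97 ± 0.30 in L-G6pc-/- (adjusted p = 0.0362, edgeR). These calls were kept in 24 and 23 of 33 leave-one-out fits and in 8 and 6 of 10 other alternatives. Single libraries that ended them were s2, s3, s4, s6, s9, s11, s14, s15 and s16 in L-G6pc+/+ (adjusted p up to 0.0727) and s18, s21, s22, s25, s27, s29, s30, s31, s32 and s33 in L-G6pc-/- (adjusted p up to 0.103). Bhmt2 and Dmgdh lie next to Bhmt on chromosome 13, at chr13:93655720-93674302 and chr13:93674433-93752833, and Bhmt2, its close homologue, passed nowhere, with 0.14 and -0.04 log2 for the same comparisons.

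Ahcy (chr2:155059310-155074497), which hydrolyses S-adenosylhomocysteine, was lower with shChREBP in L-G6pc+/+, with lowest, median and highest values of 99.5, 128 and 179.7 CPM against 158, 188 and 267 CPM. Of the shChREBP libraries s12 alone reached into the control range. The log2 fold change was -0.60 ± 0.15 (adjusted p = 0.0151, edgeR), and -0.81 ± 0.15 in shChREBP/L-G6pc-/- against shSCR/L-G6pc+/+ (adjusted p = 0.000187, edgeR). Near-identical copies exist for both genes, Gm4737 for Ahcy and Gm5096 for Bhmt, and both copies were lower in the latter comparison (-1.01 each, adjusted p = 0.00236 and 0.00319, edgeR), so the values of Ahcy and Bhmt are uncertain to the extent that reads were shared. Gnmt, which methylates glycine to sarcosine, was lower there too (-0.59 ± 0.20, adjusted p = 0.0494, edgeR), a call kept in 11 of 33 leave-one-out fits and kept without s5, s8, s9, s11, s12, s13, s17, s19, s20, s26 or s33 alone (adjusted p up to 0.127 without any other). Gnmt had 1668, 2494 and 3941 CPM in shSCR/L-G6pc+/+ against 1229.6, 1517 and 2920.1 CPM in shChREBP/L-G6pc-/-, and these ranges overlapped. Mat1a, which makes S-adenosylmethionine, and Cbs and Cth, which turn homocysteine into cysteine, passed nowhere.

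Among the branched chain genes, Ivd (chr2:118861954-118882909), the isovaleryl-CoA dehydrogenase of leucine breakdown, was lower with the deletion under both hairpins. Ivd had 71.8, 98.1 and 122 CPM in shSCR/L-G6pc+/+, 59.7, 83.4 and 108 CPM in shChREBP/L-G6pc+/+, 44.1, 64.9 and 90.6 CPM in shSCR/L-G6pc-/- and 37.4, 48.3 and 63.5 CPM in shChREBP/L-G6pc-/-. All shChREBP/L-G6pc-/- libraries lay below all shSCR/L-G6pc+/+ libraries, as for 1.67% of all genes and no other member. In the other 3 comparisons 0 members were without overlap, against 0.756% of all genes for shSCR/L-G6pc-/- with shSCR/L-G6pc+/+, 0.865% for the knockdown in L-G6pc+/+ and 0.707% for that in L-G6pc-/-. The log2 fold change of Ivd was -0.61 ± 0.14 with shSCR (adjusted p = 0.00967, edgeR), -0.80 ± 0.14 with shChREBP (adjusted p = 0.000233, edgeR) and -1.01 ± 0.14 for both changes together (adjusted p = 4.02e-06, edgeR). All of these held in every leave-one-out fit and every alternative run. Bckdha, a subunit of the branched chain ketoacid dehydrogenase, was higher with shChREBP in L-G6pc+/+ (0.58 ± 0.17, adjusted p = 0.0355, edgeR, and up to 0.0804 without s2, s4, s5, s6, s7, s9, s11, s14, s15 or s16). Bckdha had 93.2, 118 and 161 CPM in shSCR/L-G6pc+/+ and 118, 185 and 238 CPM in shChREBP/L-G6pc+/+, with 4 and 3 libraries in the shared range. Bckdhb, Mccc1 and Mccc2 passed nowhere.

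Uroc1, the urocanate hydratase of histidine breakdown, was lower with the deletion under shChREBP (-0.40 ± 0.13, adjusted p = 0.0338, edgeR, and up to 0.0776 without s9, s12, s14, s16, s25, s26, s27, s29 or s30). Uroc1 had 377, 471 and 627 CPM in shChREBP/L-G6pc+/+ and 314, 340.2 and 525 CPM in shChREBP/L-G6pc-/-, and 2 of the 9 latter libraries lay in the shared range. Hal, Amdhd1 and Ftcd of the same route, and Aass of lysine breakdown, passed nowhere.

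**Figure D3:**
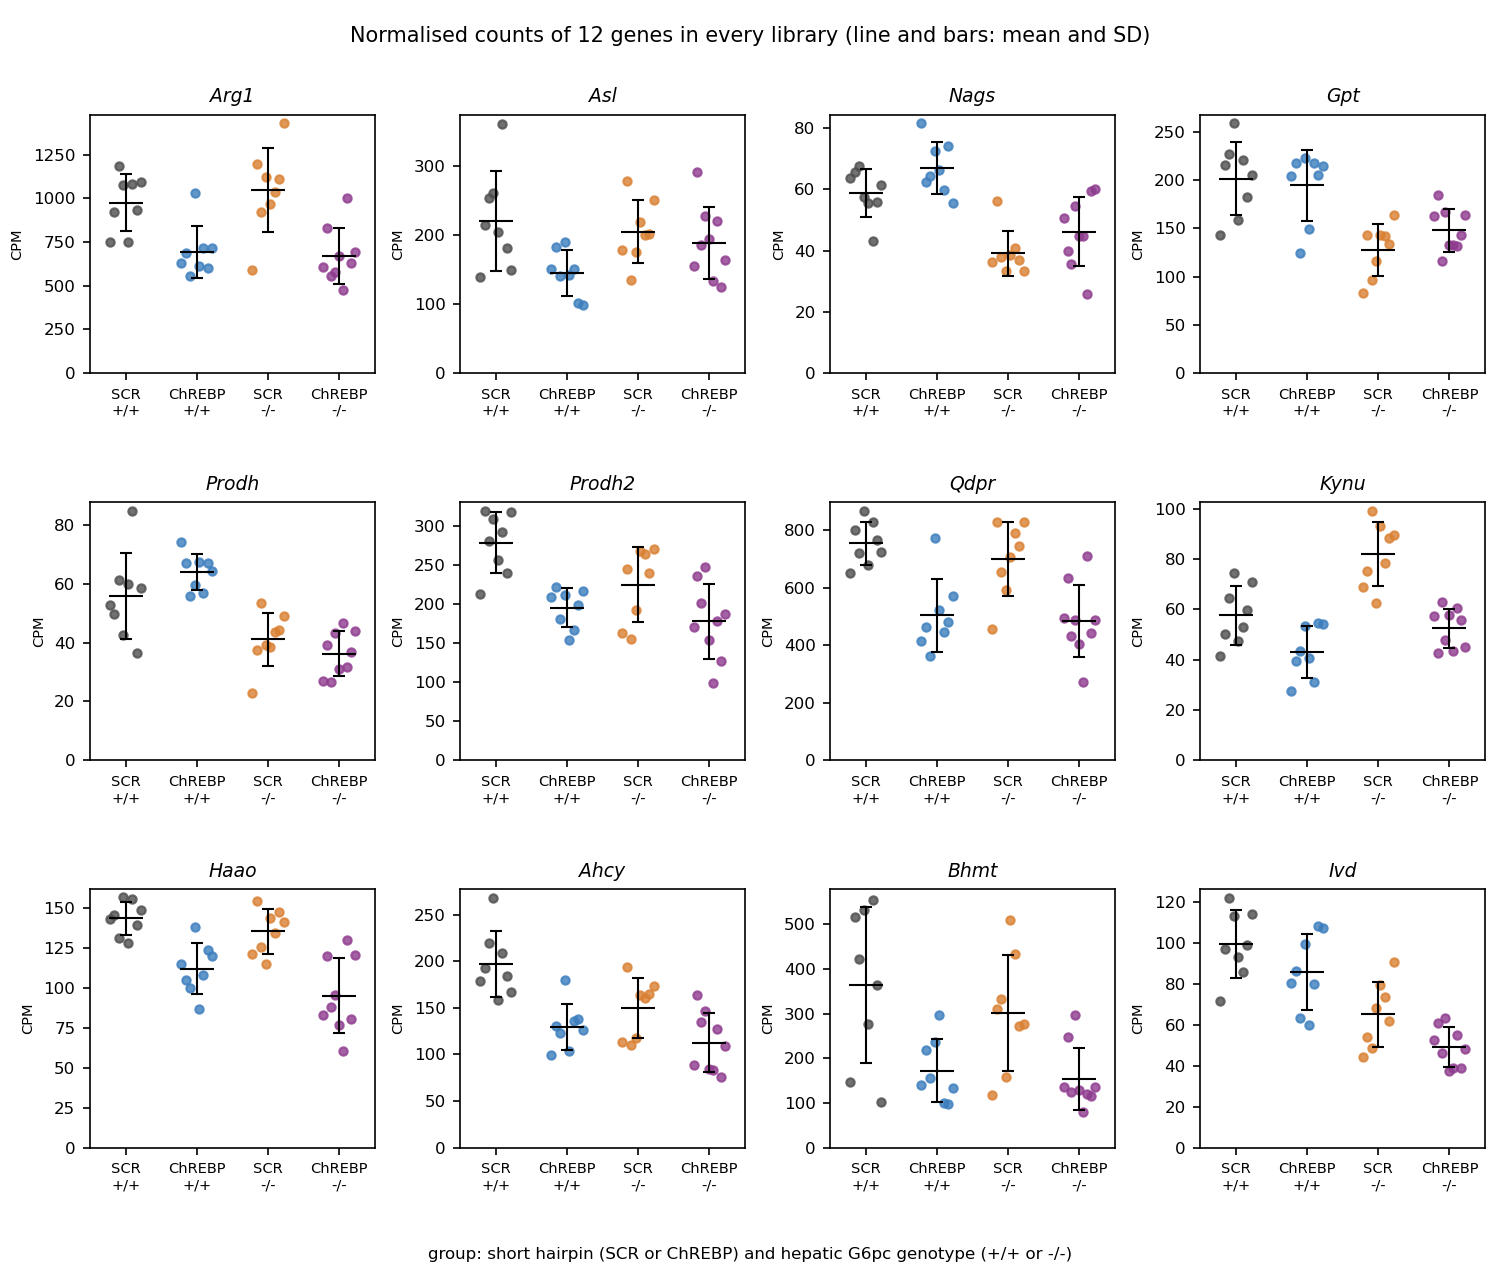
CPM of 12 genes in every library (points), with the mean and SD of each group of 8 or 9 libraries (line and bars), by hairpin and genotype. Nags, Gpt and Ivd are lower in both L-G6pc-/- groups, Arg1, Qdpr and Bhmt in both shChREBP groups, and Kynu is highest in shSCR/L-G6pc-/- with a median of 83.5 CPM.

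Leaving out s29, s30, s32 and s33 took the calls among the 55 from 5 to 0 for shChREBP in L-G6pc-/- and from 17 to 4 (Ahcy, Haao, Ivd and Prodh) for shChREBP/L-G6pc-/- against shSCR/L-G6pc+/+. Over all genes, calls fell from 770 to 106 and from 1347 to 321 in the same setting. This setting leaves 5 of the 9 shChREBP/L-G6pc-/- libraries, and fewer libraries also make a test weaker. A lost call therefore does not by itself show that these libraries carried the difference, which was not tested. In shChREBP against shSCR in L-G6pc-/-, Kynu, Haao, Arg1, Qdpr and Bhmt had log2 differences of -0.59, -0.38, -0.55, -0.34 and -0.69 with an adjusted p of 0.0594 to 0.454 (edgeR). With the deletion under shChREBP, every member call except that of Gpt also passed without these libraries, Nags and Ivd among them. The deletion under shSCR is compared between groups that hold none of these libraries. Leaving out s17 gave 8 calls for shChREBP in L-G6pc-/-, all lower. As s17 was the lowest shSCR/L-G6pc-/- library for these same genes, leaving it out raises their level in that group. No conclusion is therefore drawn from these calls. Without s9 and s13, the calls for shChREBP in L-G6pc+/+ went from 8 to 3, which were Bckdha, Bhmt and Qdpr, while calls over all genes went from 549 to 418. Of the 10 alternatives other than leaving out 1 library, the calls of Gnmt and Gcsh in shChREBP/L-G6pc-/- against shSCR/L-G6pc+/+ passed in 6 and 7, that of Gpt2 in shChREBP/L-G6pc+/+ against shSCR/L-G6pc+/+ in 7 and that of Uroc1 with the deletion under shChREBP in 8.

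**Figure D4:**
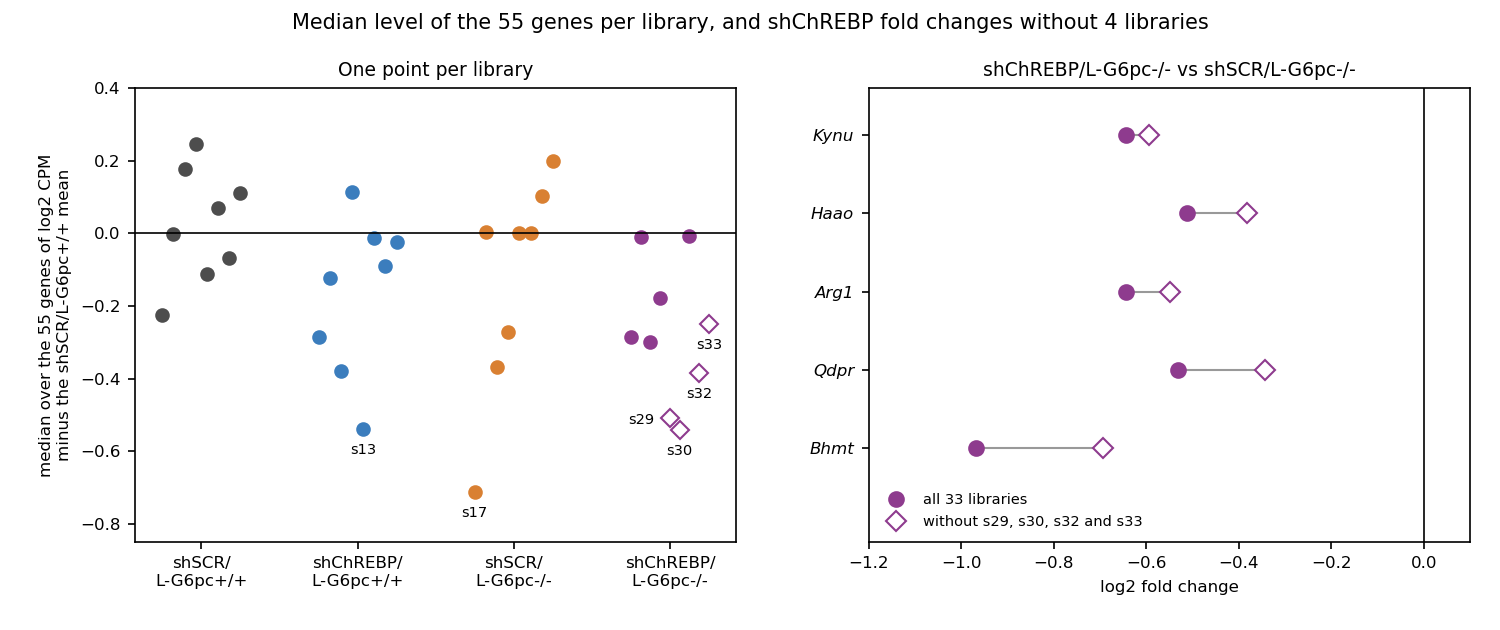
Left, the median over the 55 genes of log2 CPM minus the shSCR/L-G6pc+/+ mean in each library, with open diamonds for s29, s30, s32 and s33. Right, log2 fold changes of 5 genes for shChREBP/L-G6pc-/- against shSCR/L-G6pc-/- with all libraries (filled) and without these 4 (open). All 5 open points lie closer to 0 than the filled ones and below 0.

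A further list of 86 genes of ammonia and amino acid transport and of other amino acid enzymes, of which 75 were tested, was described by counts. These counts are to be read beside the shares of all genes called in each comparison, given above. With shSCR the deletion gave 3 higher and 1 lower, among them Pycr3 of proline synthesis (0.57 log2, adjusted p = 0.0116, edgeR) and Slc43a1, a transporter of large neutral amino acids (-1.27, adjusted p = 0.0103). The knockdown gave 1 higher and 2 lower in L-G6pc+/+, and 1 higher and 7 lower in L-G6pc-/-, where Ido2, an indoleamine dioxygenase of tryptophan breakdown, was lower (-0.66, adjusted p = 0.0157). The deletion under shChREBP gave 1 higher and 8 lower, with Acadsb of isoleucine breakdown lower (-0.68, adjusted p = 0.000406) and Aldh6a1 of valine breakdown lower (-0.58, adjusted p = 0.00322). In shChREBP/L-G6pc-/- against shSCR/L-G6pc+/+ there were 1 higher and 16 lower, where 6.87% of all genes were called higher and 6.37% lower, with Acadsb at -0.55 (adjusted p = 0.00248) and Slc38a4, an amino acid transporter, at -0.61 (adjusted p = 0.00256). Of 11 regulators, all tested, 1 was higher with the deletion under shSCR, none passed for the knockdown in L-G6pc+/+ (lowest unadjusted p = 0.113, edgeR, for Foxo1), 1 was lower for it in L-G6pc-/-, 1 was higher and 1 lower with the deletion under shChREBP, and 3 were lower in shChREBP/L-G6pc-/- against shSCR/L-G6pc+/+. Ppargc1a, a coactivator of gluconeogenic genes, was higher with the deletion under both hairpins (1.22 log2 each, adjusted p = 0.0301 and 0.0156), and Nr3c1, the glucocorticoid receptor, was lower with the deletion under shChREBP (-0.58, adjusted p = 6.23e-05) and in shChREBP/L-G6pc-/- against shSCR/L-G6pc+/+ (-0.44, adjusted p = 0.00128, edgeR for all values). The liver transcription factor Cebpa was lower with the knockdown in L-G6pc-/- (-0.45, adjusted p = 0.0319, edgeR). In shChREBP/L-G6pc-/- against shSCR/L-G6pc+/+, the glucagon receptor Gcgr (-0.32, adjusted p = 0.0156, edgeR) and Prox1, a homeobox transcription factor (-0.50, adjusted p = 0.0280, edgeR), were also lower. For these further genes and regulators, calls that involve shChREBP/L-G6pc-/- are not given without s29, s30, s32 and s33.

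Markers of cell types were counted in the same comparisons, with the same shares of all genes called. Of 14 hepatocyte markers, 0 were higher in any comparison. With the deletion 1 was lower under shSCR (median of the 14 -0.065 log2) and 4 under shChREBP (-0.33), with the knockdown 0 in L-G6pc+/+ (-0.12) and 6 in L-G6pc-/- (-0.28), and 8 in shChREBP/L-G6pc-/- against shSCR/L-G6pc+/+ (-0.44). Alb, from whose gene the Cre is driven, was the 1 marker lower with the deletion under shSCR, at -0.79 log2 (adjusted p = 3.68e-05, edgeR). It was at -1.31 in shChREBP/L-G6pc-/- against shSCR/L-G6pc+/+ (adjusted p = 5.22e-10, edgeR). The summed hepatocyte markers, a sum that includes Alb, ran from 78448 to 106048 CPM in shSCR/L-G6pc+/+, 81764 to 96603 CPM in shChREBP/L-G6pc+/+, 71811 to 82050.0 CPM in shSCR/L-G6pc-/- and 56776 to 84992 CPM in shChREBP/L-G6pc-/-. Of 12 Kupffer cell markers, 3 were higher in each of the comparisons of shChREBP/L-G6pc-/- with an shSCR group, and their sum ran from 1122 to 1923 CPM in shSCR/L-G6pc+/+, 1114 to 2938 CPM in shChREBP/L-G6pc+/+, 1031 to 2465 CPM in shSCR/L-G6pc-/- and 1638 to 2522 CPM in shChREBP/L-G6pc-/-. Of 12 stellate cell, 11 endothelial, 3 cholangiocyte and 3 lymphocyte and neutrophil markers tested, 0 or 1 passed in any comparison, all higher, and no listed marker was at 0 over all libraries. Marker calls that involve shChREBP/L-G6pc-/- are not given without s29, s30, s32 and s33. The part of cell composition in the results above was not tested.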

How the data were processed

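RNA of 33 mouse liver libraries was measured by 3' QuantSeq. Per the labels and the methods of the study, the authors aligned reads to GRCm38 with HISAT, used SAMtools on the alignments and obtained counts with HTSeq, and the versions and the strand setting are not given in the sources used here. The deposited counts were used as they stand, whole numbers per Ensembl gene for 25988 genes. The deposited normalized signal is the authors' voom table, which was found to hold each count plus a small constant divided by 1 constant per library, on a linear scale, for 11125 genes, and it was used for 1 alternative. No column of other samples was present.

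Counts were tested with edgeR 4.0.16 (R 4.3.3) by the quasi-likelihood test on all 4 groups, after TMM scaling and a filter (filterByExpr, at least 10 counts in enough libraries and 15 in total). This left 10179 genes, over which p-values were adjusted by Benjamini-Hochberg with a threshold of 0.05. log2 CPM used a prior count of 2. Alternatives were DESeq2 1.42.0, limma 3.58.1 with voom, limma on the log2 deposited values, RLE scaling, library size only, no filter, only the groups compared, no Gm42418, leaving out s29, s30, s32 and s33 or s9 and s13, and leaving out each library. The fit was tested on simulated data. Gene names came from GENCODE for 25817 of 25988 identifiers.

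The members and all gene lists were chosen with earlier results of these data known. Named with full values were the urea cycle genes and every member past the threshold in a comparison, up to 12 each with the smallest p, and from other lists up to 4 per comparison. 0 pairs of libraries were identical. The depth of 1497843 to 3546852 counts per library limits the precision of low genes most.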

Additional observations from a re-analysis of the deposited data

Results flagged for a closer look

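In 11 of 220 gene and group combinations, the highest or lowest library lay apart from the others by Dixon's ratio, and chance gives about 1 in 20, or 11. In shChREBP/L-G6pc-/- the library s31 was high for Got1 (869.6 CPM), Tat (1129 CPM), Cth (584.8 CPM) and Aass (244.8 CPM), s26 was high for Bckdhb (249.7 CPM) and s33 was low for Gpt2 (224.5 CPM). In shSCR/L-G6pc+/+ the library s7 was low for Got2 (73.18 CPM) and Ftcd (1052 CPM). In shSCR/L-G6pc-/- the library s18 was high for Nags (56.18 CPM) and s23 for Mccc2 (24.34 CPM). In shChREBP/L-G6pc+/+ the library s12 was high for Arg1 (1029 CPM).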

How the results depend on the processing

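No paired analysis was possible because the labels give no pairing of libraries between groups. The counts of called members were 5 for the deletion with shSCR, 8 for the knockdown in L-G6pc+/+, 5 for the knockdown in L-G6pc-/-, 7 for the deletion with shChREBP, 17 for shChREBP/L-G6pc-/- against shSCR/L-G6pc+/+ and 0 for the difference between knockdown effects. Without s29, s30, s32 and s33 the third was 0 and the fifth 4, without s9 and s13 the second was 3, and with no filter on low counts the fourth was 4. The cause was not tested. When 1 library was left out, the counts ran from 3 to 6 (lowest without s5), 2 to 11 (2 without s2 or s11, 11 without s12), 4 to 9 (9 without s19 or s26, 8 without s17), 4 to 10 (4 without s9, s14, s27 or s29, 10 without s33), 13 to 20 (lowest without s30) and 0 to 0. Calls over all genes in these leave-one-out fits, that without s17 included, are not set beside the member counts here. The other alternatives moved no count by more than 1.5 times, and no called value changed its sign in any setting. Scaling by library size only moved the median of all genes to 0.11 log2 for the knockdown in L-G6pc-/-, where 75.8% of all calls were then higher against 44% before. For the deletion with shChREBP these shares were 74% and 55.6%, and for shChREBP/L-G6pc-/- against shSCR/L-G6pc+/+ 68.2% and 51.9%.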

Other observations

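Urea synthesis lies mainly in periportal hepatocytes, so genes known for either zone of the lobule were described too. The shares of all genes called in each comparison are those given in the Results. Of 10 periportal genes, 5 were higher and 1 lower with the deletion under shChREBP, among them Fbp1, the gluconeogenic fructose bisphosphatase (0.73 ± 0.10 log2, adjusted p = 6.85e-06, edgeR). Of 12 pericentral genes, 0 were higher and 6 lower in the same comparison, such as Cyp27a1 (-0.66 ± 0.11, adjusted p = 0.000146, edgeR) and Cyp2e1 (-1.10 ± 0.26, adjusted p = 0.00469, edgeR). With shSCR the deletion gave 2 higher and 1 lower for each list, with Fbp1 at 0.96 ± 0.10 (adjusted p = 5.34e-08, edgeR). The knockdown gave 0 higher and 2 lower periportal genes and 0 pericentral ones in L-G6pc+/+, and 1 higher and 2 lower periportal and 0 higher and 1 lower pericentral genes in L-G6pc-/-. Between shChREBP/L-G6pc-/- and shSCR/L-G6pc+/+, 3 periportal genes were higher and 1 lower, and 0 pericentral genes were higher and 6 lower. The zonation calls that involve shChREBP/L-G6pc-/- are not given without s29, s30, s32 and s33, so how far they rest on these libraries is not known.

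The summed pericentral genes had medians of 4789 CPM in shSCR/L-G6pc+/+, 4847 CPM in shChREBP/L-G6pc+/+, 4418 CPM in shSCR/L-G6pc-/- and 2986 CPM in shChREBP/L-G6pc-/-. The effect of the knockdown on Hsd17b13, a lipid droplet protein, differed between genotypes (1.02 ± 0.18, adjusted p = 0.0149, edgeR), from -0.66 in L-G6pc+/+. The part of zonation in the results on the urea cycle was not tested.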
